A study of Mus musculus with 5 samples.

Results

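Egfem1, Obsl1, Clmp, Depp1, Fmo2, Esrrb and Mest are 7 of the 19736 genes with a column in any of the 5 deposited tables of liver non-parenchymal cells. They were picked by name, as genes seldom studied in liver endothelium, because their molecules per endothelial cell were higher after partial ligation of the inferior vena cava. That difference therefore chose them, and it is described here without a test. The mice were wild-type males that had the inferior vena cava partly ligated (pIVCL) or a sham operation when 9 weeks old, and their livers were taken 2 weeks later. The ligation narrows the vein downstream of the liver, so that venous pressure in the liver rises, and it serves as a model of congestive liver disease. Both groups shared the same dissociation with pronase and collagenase, which was followed by removal of hepatocytes, dead cells and erythrocytes. The sham group had 2 libraries and the pIVCL group 3. Sham 1, sham 2 and pIVCL 1 carried the batch label 2021.3, and pIVCL 2 and pIVCL 3 carried 2021.7, so batch and group overlap in part.

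The liver sinusoid is lined by fenestrated endothelial cells whose genes change from the portal to the central end, and endothelial cells at and near the central vein supply Wnt ligands and R-spondin 3 to the hepatocytes around them. The 7 genes belong to no common pathway. Egfem1 encodes a protein with EGF-like and EMI domains, a combination found in extracellular proteins. Clmp encodes a junctional adhesion protein of the family of the coxsackievirus and adenovirus receptor. Obsl1 encodes a cytoskeletal adaptor that acts with Cul7 and Ccdc8 in the 3M complex, named after a human growth disorder. Fmo2 encodes a flavin-containing monooxygenase that oxidizes nitrogen- and sulfur-containing compounds, best known from lung. Mest is an imprinted gene, expressed from the paternal allele, whose product has an alpha/beta hydrolase fold. Depp1 is a target of FOXO transcription factors and has been linked to autophagy, and Esrrb is an orphan nuclear receptor known from pluripotent stem cells.

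Promoter sequence was read from RefSeq start sites (GRCm38.p6), which covered 6 of the 7 genes, Clmp being the exception. The 250 bases before each start were searched on both strands for the forkhead motif GTAAANA, the AP-1 motif TGANTCA, the TEAD motif GGAATG, the hypoxia response core ACGTG and the estrogen-related receptor motif AAGGTCA. A match describes letters and is not evidence of binding. The forkhead motif stood in the window of Depp1, known as a FOXO target, and in 1 of the 2 windows of Fmo2, against 10.9% of all 32851 windows. That Fmo2 window also held the hypoxia response core, which overlaps the forkhead match, and the estrogen-related receptor motif, found in 16.6% and 4.08% of all windows. It overlaps an annotated Fmo2 exon and is not printed. None of the 5 motifs stood in the windows of Egfem1, Obsl1, Mest or Esrrb; AP-1 and TEAD motifs, present in 6.75% and 12.6% of all windows, stood in none of the 6 genes. The Depp1 stretch (chr6:116650477-116650535, plus strand) is shown because it holds the match, with the motif in capitals. The windows of Egfem1 (chr3:29081537-29081786, plus strand) and Obsl1 (chr1:75506453-75506702, minus strand) are shown for comparison, because these genes had large endothelial differences without any of the motifs.
Depp1: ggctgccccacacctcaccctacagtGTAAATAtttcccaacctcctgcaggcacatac
Egfem1: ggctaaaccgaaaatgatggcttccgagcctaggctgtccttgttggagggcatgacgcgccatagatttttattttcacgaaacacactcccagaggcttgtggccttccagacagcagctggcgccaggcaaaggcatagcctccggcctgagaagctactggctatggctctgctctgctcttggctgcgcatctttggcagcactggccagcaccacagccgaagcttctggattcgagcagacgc
Obsl1: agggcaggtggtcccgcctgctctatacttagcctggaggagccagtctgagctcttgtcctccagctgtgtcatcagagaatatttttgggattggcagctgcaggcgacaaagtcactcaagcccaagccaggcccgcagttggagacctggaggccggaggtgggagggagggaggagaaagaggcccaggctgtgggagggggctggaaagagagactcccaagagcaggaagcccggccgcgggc

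After filtering, the libraries held 2523 to 4308 cells, of which 2677 and 2358 in sham and 1510, 1640 and 714 in pIVCL (pIVCL 1, 2 and 3) were endothelial. The 8 endothelial markers, of which 5 to 8 marked each of its clusters, made up 1.93 to 2.04% of its molecules in sham and 1.77 to 1.88% in pIVCL. Median depth was 4924 to 5151 molecules per endothelial cell in sham and 4123.5 to 4492 in pIVCL. Molecules of other cell types in the endothelial class were few but not equal: the hepatocyte list took 0.012 to 0.0211% of endothelial molecules in sham and 0.0356 to 0.0446% in pIVCL, with 7 of its 8 genes above every sham library in all pIVCL libraries. The Kupffer list (5 of 8 genes higher in this sense) took 0.00388 to 0.00499% and 0.00548 to 0.0115%, and the stellate list (3 of 8) 0.00348 to 0.00388% and 0.00443 to 0.0108%. The erythroid list (1 of 5) took 0.0131 and 0.00623% in sham 1 and 2. In pIVCL 1, 2 and 3 it took 0.00693, 0.0476 and 0.128%. The part of these molecules in the values below was not tested. Levels are given as CPM, counts per 1000000, which here means molecules of a gene for that many molecules of the named cell class or subtype in the library. Endothelial subtypes were named from clusters built without the 7 genes. Their borders were not stable: from 5 random starts of the same clustering, all kept, the pericentral subtype held 646 to 2579 cells and the periportal one 611 to 2525, whereas the central vein subtype held 281 to 382. The first start is the one reported. It held the most pericentral cells (2579, against 646 to 958 in the other starts) and the fewest periportal ones (611, against 1039 to 2525). A subtype name thus does not cover the same cells in every start. Where a statement on a subtype was compared over the 5 starts, the number in which it held is given. Other values by subtype are those of the reported start. In the reported start 8 further clusters of 69 to 1101 cells carried too few markers for a name, and the angiogenic subtype held only 11 and 13 sham cells.

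In endothelial cells every pIVCL library lay above both sham libraries for each of the 7 genes, as the choice of the genes implies; over all 11347 genes tested, 27.2% had that pattern, and 2.6% passed as higher in pIVCL in edgeR's quasi-likelihood test with Benjamini-Hochberg adjustment at 0.05. The sizes ranged widely. Clmp, Egfem1, Depp1 and Obsl1 differed most and Fmo2, Mest and Esrrb less.

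**Figure D1:**
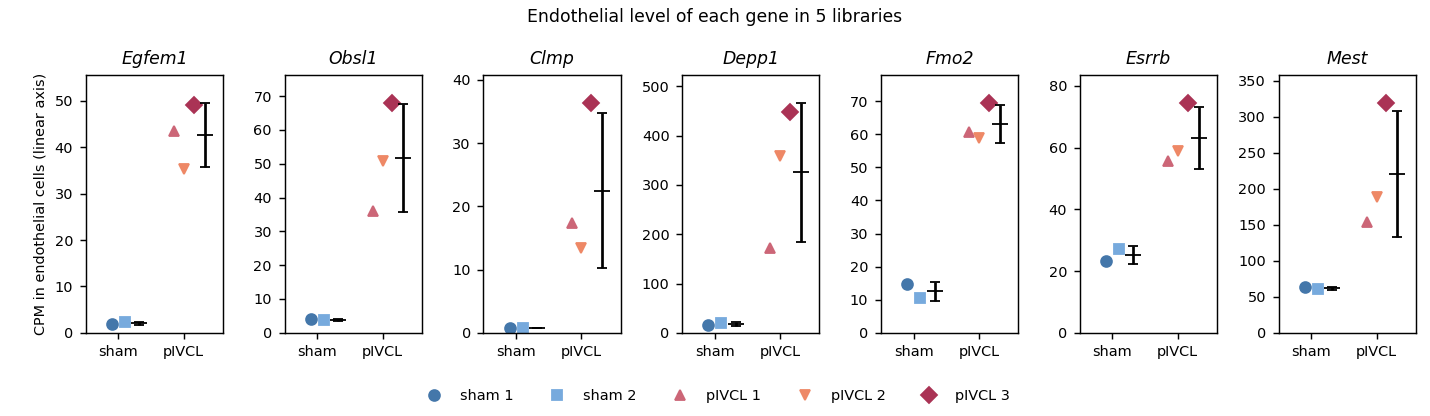
CPM of each gene in endothelial cells (linear axes starting at 0, a separate scale for each gene) in the 2 sham and 3 pIVCL libraries; black marks are group means with SD. Every pIVCL point lies above both sham points, and pIVCL 3 is the highest library for all 7 genes.

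Egfem1 stood at 1.80 CPM in sham 1 and 2.30 CPM in sham 2 (26 and 28 molecules), against 43.6, 35.3 and 49.2 CPM in pIVCL 1, 2 and 3 (305, 249 and 166 molecules). The pIVCL libraries are close to each other and far above sham. The fitted log2 difference was 4.28 ± 0.23 (SE), and within batch 2021.3 alone it was 4.37. Among the named subtypes, central vein cells held the highest level in all 5 libraries and in all 5 starts, with 21.8 and 34.9 CPM in sham (5 molecules each) and 177.5, 134 and 159 CPM in pIVCL. Pericentral sinusoidal cells had 2.86 and 3.59 CPM in sham and 46.4, 49.5 and 62.4 CPM in pIVCL, above sham in 5 of 5 starts. Periportal cells held no molecule in sham and 1, 1 and 0 in pIVCL 1, 2 and 3, in 238 and 188 sham and 74, 80 and 31 pIVCL cells, and the portal and arterial large vessels held none in any library. Outside the endothelium, stellate cells and fibroblasts carried Egfem1 in both groups, at 76.2 and 63.1 CPM in sham and 88.5, 74.7 and 35.3 CPM in pIVCL. These stellate values overlap between the groups, so the stellate level exceeded the endothelial level in both sham libraries and in pIVCL 1 and 2, and lay below it in pIVCL 3.

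Clmp was almost absent from sham endothelium, with 0.761 and 0.820 CPM (11 and 10 molecules), and stood at 17.4, 13.5 and 36.4 CPM in pIVCL 1, 2 and 3 (122, 95 and 123 molecules). The fitted log2 difference was 4.66 ± 0.50 (SE). Of its 340 molecules in pIVCL endothelium, 145 lay in the angiogenic subtype, marked by the tip-cell genes Esm1, Angpt2 and Apln, and 52 in pericentral cells. Of the 21 in sham, 9 and 7 lay in a pair of clusters without a name and 1 in the angiogenic subtype. Angiogenic cells of pIVCL had 63.7, 36.1 and 100.05 CPM. The starts gave the angiogenic subtype 11 to 68 cells in sham 1 and 13 to 74 in sham 2, where Clmp stood at 0 to 9.17 and 2.22 to 12.6 CPM, below every pIVCL library in 5 of 5 starts. Pericentral cells held 1 molecule in sham 1, 1 in sham 2 and 14.6, 10.5 and 31.2 CPM in pIVCL, an order found in 3 of 5 starts, and large vessel cells held none in any library. Clmp was not mainly an endothelial gene in sham: endothelial cells held 6.33% of all Clmp molecules in sham and 50.9% in pIVCL, while they were 62.7 and 44.7% of cells. The highest Clmp level of any cluster with more than 20 cells in each library lay outside the endothelium, in unnamed cluster 17, which showed both mesothelial and fibroblast markers, at 155 and 170 CPM in sham and 164, 88.5 and 165 CPM in pIVCL.

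Obsl1 had 4.08 and 3.69 CPM in sham endothelium (59 and 45 molecules) and 36.2, 50.9 and 68.1 CPM in pIVCL 1, 2 and 3 (253, 359 and 230 molecules). The fitted log2 difference was 3.61 ± 0.27 (SE) over all libraries and 3.17 within batch 2021.3, where only pIVCL 1, the lowest of the pIVCL libraries, was available. Central vein cells went from 13.1 and 6.99 CPM in sham to 115, 99.998 and 115.5 CPM in pIVCL, although the sham values rest on 3 and 1 molecules. Pericentral cells had 5.37 and 4.71 CPM in sham (30 and 21 molecules) and 40.2, 65.2 and 56.9 CPM in pIVCL. In both subtypes, and in cycling cells, the groups did not overlap in 5 of 5 starts. The same held in angiogenic cells, whose pIVCL mean was 120 CPM, beside 110 CPM in central vein cells. Angiogenic cells held 280 of the 842 endothelial molecules of pIVCL, against 151 in central vein cells. In sham they held 1 molecule in 24 cells. Periportal cells lay below pericentral cells in every library, with 0.850 and 0 CPM in sham and 0, 30.8 and 16.1 CPM in pIVCL. These values overlap between the groups in the reported start and not in the other 4. Stellate cells and fibroblasts had 31.0 and 26.3 CPM in sham and 29.8, 32.2 and 41.4 CPM in pIVCL, which overlap.

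Depp1 stood at 15.4 and 20.7 CPM in sham 1 and 2 (223 and 253 molecules) and at 171, 358 and 449 CPM in pIVCL 1, 2 and 3 (1198, 2523 and 1515 molecules). The pIVCL libraries differ among themselves by more than the sham libraries do, and those of batch 2021.7 are the highest. The fitted log2 difference was 4.06 ± 0.43 (SE) and fell to 3.201 with pIVCL 1 against the sham libraries of its own batch. At a depth of 1500 molecules per cell, 2.28 and 2.67% of sham endothelial cells and 15.2, 30.6 and 32.1% of pIVCL endothelial cells had a Depp1 molecule (5.30 and 6.23%, and 25.96, 46.5 and 48.0%, before thinning). Thinning left out 1 pIVCL 1 and 20 pIVCL 3 endothelial cells and none from the other libraries. In T cells, taken as a class that should lack it, the thinned shares were 1.28, 0, 0, 5.10 and 0% (1.92, 0, 1.27, 12.7 and 0% before thinning) at median depths of 2386 to 3330.5 molecules, with the libraries in the order sham 1 and 2, pIVCL 1, 2 and 3.

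The Depp1 difference was spread over the vascular bed. Every pIVCL library lay above both sham libraries in central vein, pericentral, periportal, angiogenic and cycling cells, in 5 of 5 starts. Pericentral cells had 11.6 and 23.8 CPM in sham (65 and 106 molecules) and 199, 396 and 441 CPM in pIVCL. Periportal cells had 6.80 and 9.52 CPM in sham and 45.2, 191.5 and 24.2 CPM in pIVCL, where the last value rests on 3 molecules in 31 cells. Central vein cells had 8.74 and 41.9 CPM in sham and 140, 186 and 256 CPM in pIVCL. These subtypes share the direction and differ in size. The exception was the portal and arterial large vessels, where sham already stood at 102 and 91.9 CPM and pIVCL at 142, 187 and 86.4 CPM, the groups overlapping in 5 of 5 starts. The large vessels also had the highest sham level of Depp1 among the 6 subtypes shown, in every start; the lymphatic cells, 4 in sham 1 and 2 in sham 2, were too few to place. Hepatocytes that remained in the preparation had 150.4 and 202 CPM in sham and 281, 133 and 167 CPM in pIVCL, but numbered only 4 in sham 2. Depp1 lies within Rassf4 on the opposite strand, and no source used here states that counting used strand. Rassf4 itself had 1.94 and 2.21 CPM in sham endothelium and 3.86, 7.94 and 7.11 CPM in pIVCL.

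Mest stood at 62.9 and 60.3 CPM in sham endothelium (909 and 735 molecules) and at 154, 188 and 319.5 CPM in pIVCL 1, 2 and 3 (1079, 1327 and 1079 molecules). The fitted log2 difference was 1.73 ± 0.27 (SE) over all libraries and 1.28 within batch 2021.3. Central vein cells had 96.1 and 90.8 CPM in sham and 463.5, 520.4 and 646 CPM in pIVCL, and pericentral cells 58.7 and 52.0 CPM in sham and 170, 229 and 446 CPM in pIVCL. In both the groups stayed apart in 5 of 5 starts, as they did in periportal and cycling cells. In angiogenic cells they overlapped in the reported start and in 1 other of the 5. In the large vessels they overlapped in every start, at 135 and 174 CPM in sham and 142, 159 and 209.8 CPM in pIVCL. Mest shares sequence with Copg2 on the opposite strand, whose endothelial level was 18.7 to 20.1 CPM in sham and 19.4 to 20.8 CPM in pIVCL.

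Esrrb had the smallest difference of the 7, from 23.3 and 27.2 CPM in sham endothelium (336 and 332 molecules) to 55.8, 58.9 and 74.6 CPM in pIVCL 1, 2 and 3 (390, 415 and 252 molecules). The fitted log2 difference was 1.22 ± 0.16 (SE). It was also the most endothelial of the 7 genes in sham, where endothelial cells held 89.2% of its molecules. Pericentral cells had 24.5 and 33.4 CPM in sham (137 and 149 molecules) and 67.9, 77.2 and 82.6 CPM in pIVCL, apart in 5 of 5 starts. Mean levels were higher in angiogenic cells, at 72.9 CPM in sham (11 molecules in 24 cells) and 114 CPM in pIVCL. They were also higher in cycling cells, at 42.7 CPM in sham and 105 CPM in pIVCL. In each of these subtypes the groups overlapped in 1 of 5 starts. Central vein cells held 1 molecule in sham 1 and 0 in sham 2, in 43 and 25 cells, while those of pIVCL had 39.4, 59.1 and 37.4 CPM. Esrrb was nearly absent from the large vessels, with 1 molecule in sham 1, 1 in pIVCL 1 and none in the other libraries.

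Fmo2 was unlike the others in where it lay. Over all endothelial cells it stood at 14.6 and 10.6 CPM in sham 1 and 2 (211 and 129 molecules) and at 60.8, 58.9 and 69.6 CPM in pIVCL 1, 2 and 3 (425, 415 and 235 molecules), a fitted log2 difference of 2.23 ± 0.17 (SE). Central vein cells held 299 of the 340 sham molecules and 772 of the 1075 pIVCL molecules. Within the central vein subtype the level stood at 795 and 817 CPM in sham (182 and 117 molecules in 43 and 25 cells) and at 595, 648 and 390.2 CPM in pIVCL (362, 285 and 125 molecules in 92, 81 and 57 cells), lower in every pIVCL library in 5 of 5 starts and without centring by library. That direction depends on the border of the subtype. A separate cluster of 179 cells (102 and 59 in sham, 11, 3 and 4 in pIVCL) was named pericentral although Wnt9b and Rspo3 are among its leading genes, since the marker lists of both subtypes contain them. Pooling every cluster that qualifies for the central vein name was an alternative chosen after the data were seen. In the reported start Fmo2 then stood at 233 and 251 CPM in sham and at 540, 628 and 365 CPM in pIVCL. It was thus higher in every pIVCL library. The added cells of that start are almost all of sham. They hold 2 more Fmo2 molecules in sham 1 (184 against 182) and none more in sham 2. In the 4 further starts the pool took in the whole pericentral subtype. In the first of these it held 347 and 239 sham cells, of which 39 and 25 were of the central vein subtype. Fmo2 was higher in every pIVCL library in those starts too, but this order covers both subtypes together. Without centring by library, 1 cluster qualifies, and Fmo2 is below sham in every pIVCL library there (908 and 881 CPM, against 448, 689 and 343 CPM). In the reported start the direction of Fmo2 within central vein cells thus depends on whether the 179 added cells are counted among them. The other 6 genes were higher in every pIVCL library under both definitions. Fmo2 was close to absent from sham sinusoids, with 3 and 1 molecules in the 1009 and 833 pericentral cells of sham 1 and 2, and reached 9.01, 23.98 and 29.4 CPM in pericentral cells of pIVCL 1, 2 and 3.

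The cells assigned to the central vein subtype were not alike in the 2 groups, which touches the Fmo2 values directly. Of the 8 marker genes that name the subtype, 7 had lower values in these cells in all pIVCL libraries than in sham 1 or sham 2. Rspo3, the R-spondin 3 gene, had 3901 and 4227 CPM there in sham and 1533, 1320.4 and 1866 CPM in pIVCL. Wnt9b, which encodes a Wnt ligand, had 1027 and 748 CPM in sham and 67.4, 155 and 96.8 CPM in pIVCL. Over all endothelial cells Rspo3 was higher in every pIVCL library (97.9 and 76.3 CPM, against 168, 117 and 265 CPM) and Wnt9b lower (36.0 and 17.5 CPM, against 8.29, 12.8 and 13.9 CPM). Patterns of these kinds were shown by 27.2 and 16.2% of all genes tested. Since the genes that define the subtype differ, its cell numbers are given only as the depth behind each value. When the share of endothelial molecules taken by each subtype was held at its sham mean, an alternative chosen after the data were seen, the ratio of mean Fmo2 CPM went from 5.12 to 1.81. That of Egfem1 went from 20.8 to 14.8, that of Clmp from 28.4 to 20.9 and that of Depp1 from 18.1 to 17.1. This calculation rests on the same subtype assignment.

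**Figure D2:**
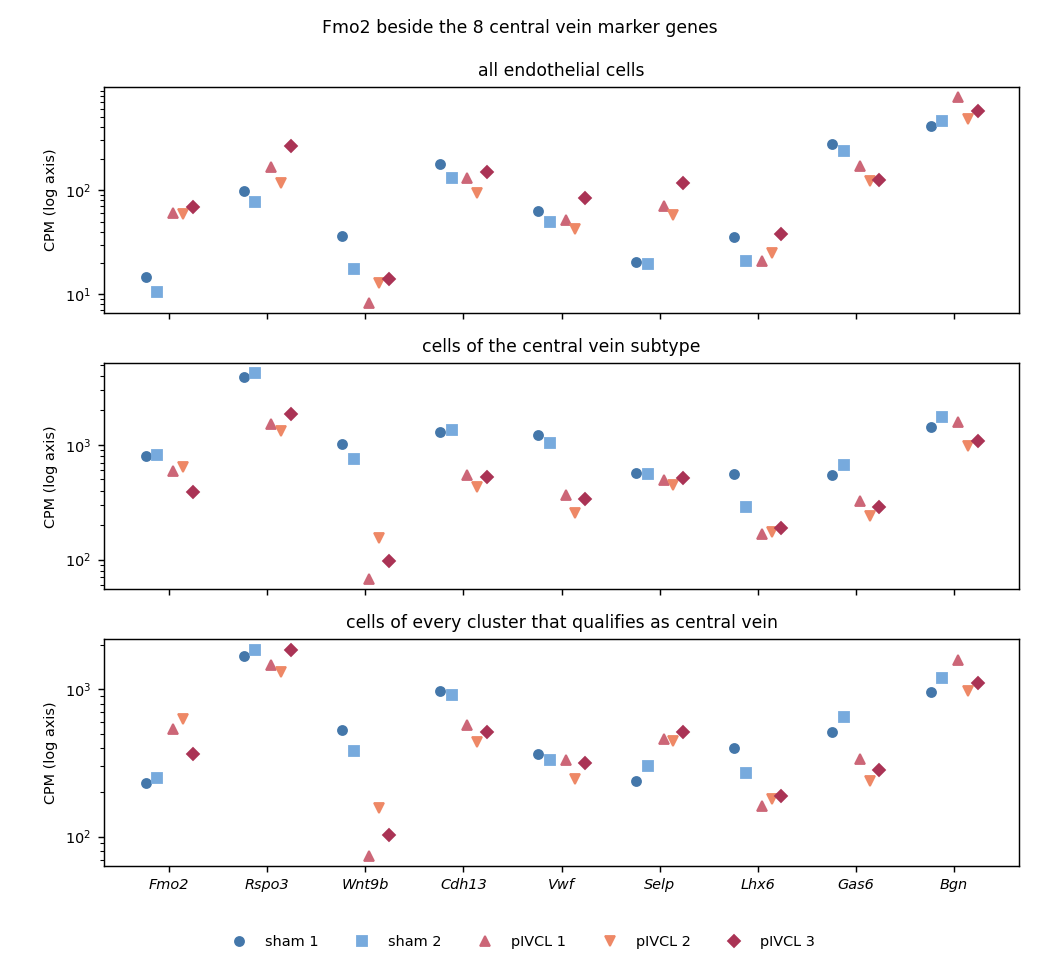
CPM (log axes, a separate range in each panel) of Fmo2 and of the 8 central vein marker genes in each library, over all endothelial cells (top), in cells of the central vein subtype (middle) and in every cluster that qualifies for that name (bottom). Fmo2 lies higher in every pIVCL library in the top and bottom panels and lower in the middle panel, where 7 of the 8 markers are lower as well.

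Fmo2 was also high outside the endothelium. Cholangiocytes had 657 and 679 CPM in sham and 757, 667 and 502 CPM in pIVCL, which overlap, and unnamed cluster 17 had 1341 and 965 CPM in sham and 1251, 826 and 637 CPM in pIVCL. Endothelial cells therefore held 15.2% of all Fmo2 molecules in sham and 42.2% in pIVCL. Most Fmo2 molecules thus lay outside the endothelium in both groups.

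**Figure D3:**
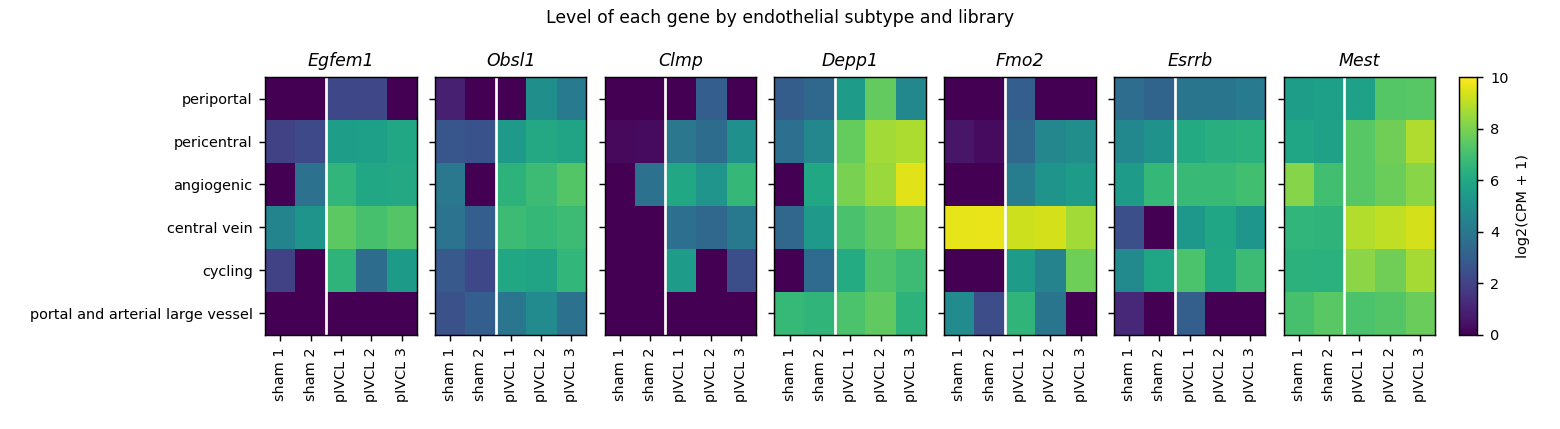
log2(CPM + 1) of each gene in 6 named endothelial subtypes and 5 libraries; colour runs from 0 (dark) to 10 (yellow), and a white line separates sham from pIVCL. Subtypes are those of the reported start, whose angiogenic row rests on 11 and 13 sham cells. Depp1 is brighter in pIVCL in all rows but the large vessels, and Egfem1 and Clmp stay dark in large vessel cells and nearly so in periportal cells. Fmo2 is brightest in central vein cells.

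Position along the sinusoid was not used in choosing the genes, and it was compared within libraries. Pericentral and periportal sinusoidal cells of the same 5 libraries were set against each other with library as a block. The subtypes were clustered on other genes of the same cells, so the p-values are conditional on that clustering. Because the genes were chosen for being high in pIVCL, the sham libraries are given first. In them 4 of the 7 genes had enough molecules for a test, and Esrrb, Depp1 and Obsl1 passed as higher in pericentral cells in edgeR's quasi-likelihood test with Benjamini-Hochberg adjustment, where 7.63% of 9774 genes tested were higher and 6.24% lower. Esrrb differed by 1.56 ± 0.32 on the log2 scale (SE, adjusted p = 1.85e-05 in edgeR's test) and Depp1 by 1.115 ± 0.37 (adjusted p = 0.0246). Obsl1 differed by 3.31 ± 1.06 (adjusted p = 0.0155 in edgeR's test), with 1 molecule in sham periportal cells against 30 and 21 in pericentral cells. Mest did not pass (0.29 ± 0.19, adjusted p = 0.378 in edgeR's test). Each of these 3 passing genes was higher in both sham libraries. The sham libraries were fitted alone in the reported start only, the one with the most pericentral and fewest periportal cells.

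Over all 5 libraries, where 7.15% of 9105 genes tested were higher in pericentral cells and 5.23% lower, Esrrb (1.95 ± 0.27, adjusted p = 9.51e-08 in edgeR's test), Obsl1 (2.12 ± 0.43, adjusted p = 1.77e-04) and Depp1 (1.72 ± 0.34, adjusted p = 0.0142) were higher in 5 of 5 libraries and passed in 5 of 5 starts. The starts gave 1.08 to 2.01, 2.12 to 3.22 and 0.65 to 1.72. Depp1 did not pass without sham 2 (adjusted p = 0.0721 in edgeR's test) or without pIVCL 1 (0.0525). Mest passed in the reported start alone (0.77 ± 0.17, adjusted p = 0.00314 in edgeR's test), with adjusted p of 0.190 to 0.456 in the other 4.

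Egfem1, Fmo2 and Clmp could be fitted only through the pIVCL libraries, in which they were chosen for being high, and their zone differences are given without a test. Egfem1 had 16 molecules in the pericentral cells of each sham library and none in sham periportal cells, and its log2 difference over all libraries was 4.34 ± 0.62 (SE), with 4.25 to 5.86 over the starts. Fmo2 stood at 2.73 ± 0.92, from 2.30 without pIVCL 3 to 6.12 without pIVCL 1, and was too low to fit without pIVCL 2. Clmp stood at 2.48 ± 0.96, from 1.87 without pIVCL 1 to 5.70 without pIVCL 2. The size of these last differences thus rests on single pIVCL libraries. The zones also depend on centring each gene by library before clustering. Without it the pericentral subtype held 799 and 627 sham but 14, 3 and 0 pIVCL cells, so only the sham libraries could be fitted, and 0 of 3 genes tested passed edgeR's test (1 of 3 at an unadjusted p under 0.05). Esrrb came nearest there (1.504, adjusted p = 0.0546 in edgeR's test), and Mest turned to -0.27.

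**Figure D4:**
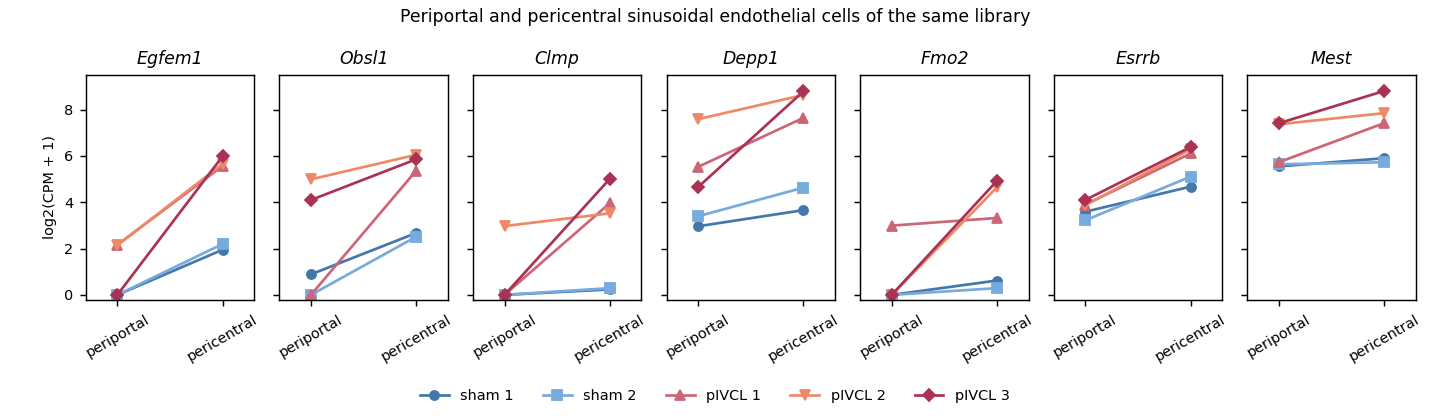
log2(CPM + 1) of each gene in periportal and pericentral sinusoidal endothelial cells, with a line joining the 2 values of each library. In the reported start shown here all lines rise towards the pericentral side, with the sham lines of Clmp, Fmo2 and Mest nearly flat.

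The 7 genes were also counted together in single cells. At 1500 molecules per cell, 1.01 and 1.06% of sham endothelial cells had molecules of at least 2 of the 7 genes, against 10.6, 17.6 and 24.6% in pIVCL 1, 2 and 3. At least 3 of them were found in 0.0374 and 0.0424% of sham cells and in 1.66, 3.48 and 6.34% of pIVCL cells. These shares are given as a description, and whether they exceed what the level of each gene alone would give was not tested. Across 59 sums of subtype by library, which share libraries and depth, the Pearson correlations between the genes' log2 CPM ranged from 0.02 (Fmo2 with Esrrb) to 0.89 (Obsl1 with Mest). Within the 35 pIVCL sums Obsl1 and Mest still stood at 0.84, while Depp1 and Mest went from 0.72 to 0.22.

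By the same measure, among 6645 genes and in the reported start only, the genes most like each of the 7 were as follows. The genes most like Egfem1 included Gng2 (0.84) and the urokinase gene Plau (0.84). Fmo2 was nearest to Samd5 (0.93), the growth factor gene Bmp4 (0.92) and the P-selectin gene Selp (0.88), and Esrrb to the transcription factor gene Irf8 (0.89), Abcc9 (0.83) and Cerk (0.82). Depp1 was nearest to Pdgfb (0.86), a platelet-derived growth factor made by tip cells, Marcks (0.85) and Ergic3 (0.82). Clmp was nearest to the potassium channel gene Kcnj8 (0.82), Mpzl1 (0.79) and Rgs2 (0.79). Obsl1 and Mest were each other's nearest gene; Obsl1 was followed by Mpzl1 (0.85) and Tspan6 (0.84), and Mest by Tspan6 (0.88) and Filip1l (0.83).

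Other cell classes were not used in choosing the genes, and 6 classes had at least 20 cells in every library. Enough molecules for a test were found for 13 pairs of gene and class, and none passed edgeR's quasi-likelihood test with Benjamini-Hochberg adjustment over all genes of the class, against 5 of 13 at an unadjusted p under 0.05. Those 5 include Depp1 and Egfem1 in Kupffer cells, which entered the test mainly through pIVCL counts. Of all genes tested in a class, 0.512% passed in stellate cells and fibroblasts, 0.268% in conventional dendritic cells, 0.1% in monocytes and 0% in Kupffer cells, T cells and the class of NK cells and ILC1, in either direction. At an unadjusted p under 0.05 the shares were 11.2, 9.76, 8.8, 10.2, 4.76 and 6.58% in that order. The nearest to passing was Mest in stellate cells and fibroblasts. Its level was 62.1 and 126 CPM in sham (22 and 24 molecules) and 182, 238 and 383 CPM in pIVCL 1, 2 and 3 (239, 437 and 250 molecules), with no overlap. The log2 difference was 1.68 ± 0.42 (SE, adjusted p = 0.150 in edgeR's test), all 3 pIVCL libraries being above sham 1 and sham 2, a pattern shown by 12.6% of the genes tested there. It passed in DESeq2 (adjusted p = 0.0283), with no expression filter, with stricter cell filters and without pIVCL 1. The endothelial list in these cells stood at 21.0 and 30.8% of its endothelial level in sham and at 3.00, 17.97 and 19.7% in pIVCL, while Mest stood at 98.6 and 210% and at 118, 127 and 120% of its own endothelial level.

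In Kupffer cells, the resident macrophages of the liver, 6 genes had fitted differences above 1 on the log2 scale, but their levels moved with endothelial molecules in 1 library. The endothelial list stood at 6.47 and 13.5% of its endothelial level in sham and at 8.36, 23.1 and 9.75% in pIVCL 1, 2 and 3. Depp1 had 1.31 and 1.23 CPM in sham and 9.67, 95.3 and 18.02 CPM in pIVCL, which is 5.64, 26.6 and 4.02% of its endothelial level in the pIVCL libraries. Egfem1 had 0.477 and 1.23 CPM in sham (4 and 8 molecules) and 4.30, 14.6 and 7.36 CPM in pIVCL, or 9.85, 41.4 and 14.97% of its endothelial level, beside 26.5 and 53.7% in sham. The log2 differences were 4.99 ± 1.37 for Depp1 and 3.38 ± 0.68 for Egfem1. No p-value is given for them, because both genes entered the test mainly through pIVCL counts. Kupffer cells held 19 Depp1 and 12 Egfem1 molecules in sham, against 497 and 94 in pIVCL. Without pIVCL 2 the differences were 3.38 and 2.76, and Egfem1 also ranged from 2.81 without sham 1 to 4.12 without sham 2. The part of endothelial molecules in these values was not tested. In T cells the endothelial list stood at 14.2% of its endothelial level in sham 1 and 29.0% in pIVCL 2, and at 1.32 to 2.83% in the other libraries, and Depp1 stood at 43.1 and 35.0% of its own in those 2 libraries.

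**Figure D5:**
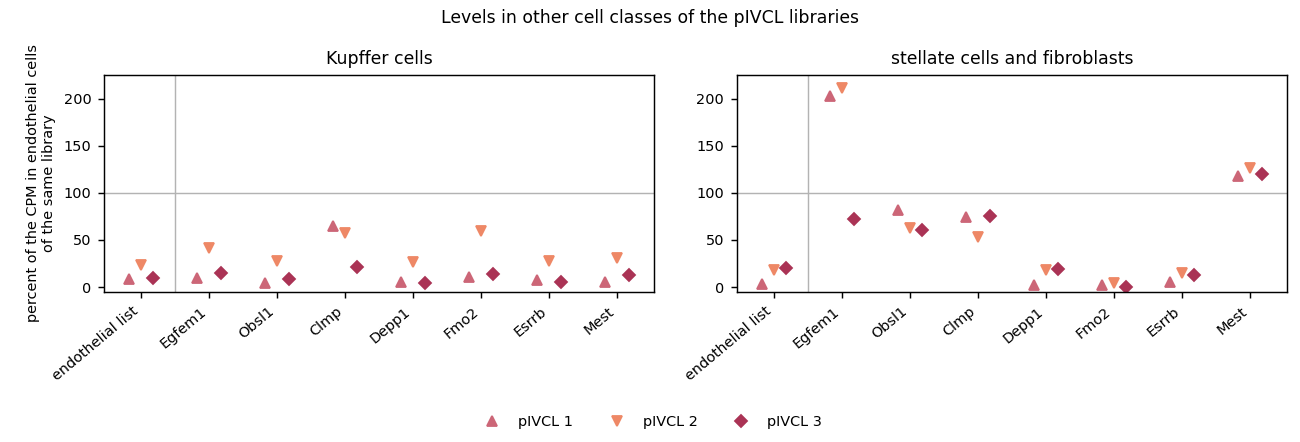
Level of the summed endothelial marker list and of each gene in Kupffer cells (left) and in stellate cells and fibroblasts (right), as percent of the CPM in endothelial cells of the same pIVCL library (linear axes, grey line at 100%). In Kupffer cells pIVCL 2 is highest for the list and for 6 of the 7 genes, and in stellate cells Mest and, in pIVCL 1 and 2, Egfem1 lie above 100%.

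The families and pathways around the 7 genes were followed in endothelial cells through 8 lists, with the 7 genes left out. Of 106 listed genes 65 were expressed well enough to be tested, and 6 were higher and 3 lower in pIVCL in edgeR's quasi-likelihood test with Benjamini-Hochberg adjustment, against 2.6 and 2.65% of all genes tested. The list of FOXO targets and FOXO genes had 22 genes tested, of which 2 were higher and 2 lower, with a median log2 difference of 0.23 beside 0.00 over all genes. Angpt2, the angiopoietin 2 gene and a tip-cell marker, rose from 19.4 and 24.6 CPM to 191, 199 and 229 CPM (log2 difference 3.13 ± 0.16, adjusted p = 1.22e-04 in edgeR's test). Sesn3, a stress-response gene, rose by 0.79 ± 0.18, whereas Tek, which encodes the angiopoietin receptor, fell by 0.83 ± 0.16 and Insr, the insulin receptor gene, fell by 0.67 ± 0.12. Depp1 thus had both directions among the genes it was listed with.

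The imprinted gene network, to which Mest belongs, had 11 genes tested, of which 2 were higher and none lower, with a median of 0.19. Peg10, an imprinted gene of retrotransposon origin, went from 2.56 and 2.21 CPM to 17.7, 30.2 and 52.4 CPM (3.65 ± 0.46, adjusted p = 0.00908 in edgeR's test), and Plagl1, a zinc finger gene, rose by 1.03 ± 0.20. The list of EGF-domain extracellular proteins around Egfem1 had 13 genes tested, 2 higher and none lower, with a median of 0.16. These were Megf6 (1.92 ± 0.30) and Fbln5 (1.40 ± 0.22), an elastic fibre gene that went from 20.2 and 17.5 CPM to 51.0, 39.99 and 70.8 CPM.

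In the remaining lists 1 gene passed. Among the estrogen-related receptors and their partners, Ncoa3, a nuclear receptor coactivator gene, fell by 1.25 ± 0.24, from 214 and 228 CPM to 132, 86.2 and 74.6 CPM (adjusted p = 0.0315 in edgeR's test), and 6 genes of this list were tested, with a median of -0.15. None of the 2 tested genes of the FMO family, the 2 pluripotency partners of Esrrb, the 5 genes of the 3M complex and obscurin family or the 5 junction proteins of the family of Clmp passed, with medians of 0.16, -0.50, 0.46 and 0.34. At an unadjusted p under 0.05 there were 0, 0, 1 and 2, beside 23.6% of all genes tested. The FOXO list had 13 of 22 at that threshold, the imprinted network 5 of 11, the EGF-domain list 7 of 13 and the estrogen-related receptor list 1 of 6. All lists were chosen with earlier results of these data known. Cul7, the partner of Obsl1, had 27.6 and 22.5 CPM in sham and 32.5, 48.8 and 50.6 CPM in pIVCL (0.71 ± 0.20, adjusted p = 0.0798 in edgeR's test). Jam2, a junctional adhesion gene listed with Clmp, had 382 and 337 CPM in sham and 217, 96.3 and 151 CPM in pIVCL (-1.30 ± 0.31, adjusted p = 0.0609). The list counts depended on the sham libraries: with either left out, 1 gene was higher and 0 lower, whereas without pIVCL 1 there were 16 and 8. Calls over all genes moved with them, to 30 higher and 26 lower of 11807 without sham 1, 36 and 42 of 11831 without sham 2, and 1254 and 1344 of 11532 without pIVCL 1, from 295 and 301 of 11347.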

How the data were processed

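The authors deposited counts of molecules per cell and gene, corrected for errors in the molecular identifiers, per the file headers; per the submitters' processing notes they come from version 1.9.1 of the BD WTA Rhapsody Analysis Pipeline on GRCm39. For the aligner, annotation and use of strand: not given in the sources used here. Libraries held 2680 to 5000 cells and 12448260 to 30523228 molecules. Cells with under 500 molecules, under 200 genes or over 25% mitochondrial molecules were removed, as were the 3% with the highest doublet scores per library, since the automatic threshold marked 0.0815% of 17188 cells. The filters removed unequal shares of the libraries. The mitochondrial limit was exceeded by 6.17 and 5.52% of cells in sham 1 and 2. In pIVCL 1, 2 and 3 it was exceeded by 2.09, 29.9 and 11.0% of cells. Under 200 genes were found in 109 and 117 cells of sham and in 29, 617 and 261 of pIVCL. No correction for free RNA was made. Each pair of libraries shared 8 to 30 cell indices, at most 0.897% of the smaller library.

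Clusters (scanpy 1.11.5, 2000 variable genes without the 7 genes, 30 components, 20 neighbours, resolution 1) were named when at least 3 and at least 50% of a class's markers were detected in 25% of cells at 2-fold or more. Endothelial subtypes were clustered after centring each gene by library. Rounding differences between runs regrouped these subtypes, so threads were fixed and 4 further random starts were run and all kept. The shares that allow a subtype name (30%), that bar a mixed class (75%) and that Kupffer cells need of Clec4f-positive cells (50%) were set after the clusters were seen.

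Molecules were summed per class or subtype and library and fitted over all genes with edgeR 4.0.16 (quasi-likelihood, robust, TMM, filterByExpr), with Benjamini-Hochberg adjustment at 0.05. DESeq2 1.42.0, other scalings, filters, a batch term and leaving out each library were alternatives. The script was tested on simulated data. The labels give each library as a sample from a mouse without naming the animals, and p-values therefore reflect only how these libraries vary, which may be technical. The 7 genes and all lists were chosen with earlier results of these data known. Named were the 7 genes, up to 4 passing genes of lowest p per list, and the 3 genes most like each of the 7, of which 1 is not reported here; Cul7, Jam2, Copg2, Rassf4, Rspo3 and Wnt9b were named after their values were seen. The sequences are RefSeq's on GRCm38.p6, another build than that of the counts, and were used only as sequence. An exact binomial interval at 95% was computed for shares of cells and covers counting error only.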

Additional observations from a re-analysis of the deposited data

Results flagged for a closer look

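Fmo2 met the criterion for groups that differ in the direction of the same contrast. In the central vein subtype the mean pIVCL level was 0.675 times the mean sham level, with every pIVCL library below both sham libraries. In all endothelial cells, and in the cycling and pericentral subtypes, every pIVCL library lay above both. The difference between subtypes was not tested. The direction within central vein cells depends on their definition. In the reported start, pooling every cluster that qualifies for the central vein name adds cells almost all of sham. These hold 2 Fmo2 molecules more in sham 1 and none more in sham 2. Over that pool each pIVCL library lay above both sham libraries, and without centring by library each lay below. The central vein marker genes moved with the subtype as well, 7 of 8 being lower in its pIVCL cells in every library, and their part in the Fmo2 result was not tested.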

How the results depend on the processing

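For the 7 genes in all endothelial cells, every alternative kept the direction. Leaving out 1 library gave log2 differences of 2.02 to 2.46 for Fmo2. A batch term or batch 2021.3 alone gave 3.16 and 3.17 for Obsl1, 3.199 and 3.201 for Depp1 and 1.28 under both for Mest. Stricter cell filters gave 4.02 for Egfem1, and subtype shares held at sham gave 3.88 for Egfem1, 3.23 for Obsl1 and 0.85 for Fmo2. Of the tests in other classes, 0 passed in the edgeR fit, 3 with no expression filter, 3 in DESeq2 and 1 with stricter filters. Those in DESeq2 include Depp1 and Egfem1 in Kupffer cells, which rest on pIVCL counts. The share of all genes that passed in those classes under each alternative is not given here. These counts are therefore not read as a result about the 7 genes. List genes higher in pIVCL numbered 14 with no filter, 13 in DESeq2 and 1 to 16 with 1 library left out, and those lower 9 with no filter, 1 with a batch term, 5 in batch 2021.3 alone and 0 to 8 with 1 library left out. Over all genes, those higher went from 295 to 888 with no filter, 584 in DESeq2 and 30 to 1254 with 1 library left out, and those lower from 301 to 918 with no filter, 175 with a batch term, 405 in batch 2021.3 alone and 26 to 1344 with 1 library left out.

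Results by subtype were the least stable. A first run of the same clustering, with other thread settings, regrouped the endothelial clusters through rounding differences, and gave zone calls for more of the 7 genes. The run with fixed settings is reported, and 4 further random starts were added after this was seen. The zone fits of Egfem1, Fmo2 and Clmp rest on pIVCL and are not counted as tests. Of the others, Esrrb, Obsl1, Depp1 and Mest passed as reported. In the 4 further starts Esrrb, Obsl1 and Depp1 passed and Mest did not. None passed without centring, where Mest reversed (-0.27), and 3 passed in the sham libraries alone. Depp1 did not pass without sham 2 or without pIVCL 1. Within central vein cells the log2 ratio of mean Fmo2 was -0.57 as reported. It reversed to 1.08 with every qualifying cluster of the reported start pooled. In further starts 1 to 4 that pool also held the whole pericentral subtype, and the ratio over it was 2.08, 1.92, 2.04 and 1.91. Within the named central vein subtype Fmo2 was lower in every pIVCL library in 5 of 5 starts.

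Other reversals were in tests that had not passed: Depp1 in stellate cells with a batch term (-0.81), Obsl1 there with stricter filters (-0.26), Egfem1 there without sham 2, pIVCL 1 or pIVCL 2 (-0.11 to 0.34 over the libraries left out), Fmo2 in Kupffer cells with a batch term (-0.36), in batch 2021.3 alone (-0.36) or without pIVCL 2 (-0.064 to 1.80 over the libraries left out), and Fmo2 in monocytes without sham 2 or pIVCL 3 (-1.48 to 1.86). The cause was not tested. With 1 sham library left out, the lone sham sample is assumed to vary like the pIVCL group. Replicate numbers were not used to pair the samples in the reported fit. Deviations of same-numbered libraries correlated at -0.08 and 0.01. With 2 sham libraries their deviations mirror each other, so these values cannot decide whether the samples were paired. With the replicate block, 5 of the tests in other classes passed. In that fit pIVCL 3 is alone in its block, and each other block holds 1 sham and 1 pIVCL library. Few degrees of freedom are thus left to measure how the libraries vary. The share of all genes that passed in those classes under that fit is not given here. The count of passing tests is therefore not read as a result.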
